A study of Homo sapiens with 4 samples.

Results

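Zinc finger genes outside chromosome 19 were examined in RNA-sequencing of a STAU1 knockdown. They were taken as the protein-coding genes whose symbol is ZNF followed by a number, with or without further letters, and which lie on an autosome other than chromosome 19. This rule uses names and positions only, and it found 251 genes among the 66963 genes of the count table. Another 246 genes with such symbols lie on chromosome 19, and 12 lie on X or elsewhere. The cells are SAS, a human tongue squamous carcinoma line, infected with virus that carries an shRNA. The Ctrl group (2 libraries) carries an shRNA against luciferase (shLuc), and the shSTAU1 group (2 libraries) carries an shRNA against STAU1, the gene of a protein that binds double-stranded RNA. The labels give genotype WT and the same treatment, viral infection, for all 4 libraries. Both groups thus share the infection and an shRNA. The labels also name C3H 10T1/2, a mouse fibroblast line, while giving the organism as human, and the growth protocol gives SAS. Nothing in the labels says that the replicates were separate cultures, so the p-values measure the spread between these libraries, which may be technical.

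Proteins of this family bind DNA with an array of C2H2 zinc fingers, short folds held together by a zinc ion, and the order of the fingers sets which DNA sequence is bound. Many of them also carry a KRAB domain, which recruits the corepressor TRIM28 and, through it, the histone methyltransferase SETDB1 and heterochromatin proteins, and they are best known for silencing transposable elements. The genes arose largely by tandem duplication, so that neighbours in a cluster are often close relatives. In the coding sequences used here (the longest coding transcript per gene), 101 of the 251 genes encode a KRAB motif, 16 encode a motif of the SCAN domain, which pairs such proteins with each other, and 10 have no C2H2 finger motif. Genes without the finger motif remained in the analysis because the rule is by name.

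Neighbouring fingers are joined by a conserved linker of threonine, glycine, glutamate, lysine and proline. The members hold 787 such linkers, encoded by 130 different sequences, of which the commonest, actggAGAGAAAccc, encodes 140 linkers (17.8%). The 7-base word AGAGAAA in its middle covers the last base of the glycine codon and the codons of glutamate and lysine, and it occurs in 289 linkers (36.7%). This word is shown because most of the genes that fell hold many copies of it. It had been picked out earlier by a scan of the 3' untranslated regions of all genes against these same fold changes, so its relation to them is a description and no independent evidence. The stretches below run from the start of 1 linker to the end of the next, 99 bases of coding sequence with 1 finger between (GENCODE 29 transcripts on GRCh38). The word is in capitals. The first 5 are from genes that were lower in shSTAU1 cells, and they lie at chr4:443471-443569 (ZNF721, minus strand), chr7:64707607-64707705 (ZNF107, plus strand), chr4:86171-86269 (ZNF595, plus strand), chr1:227654692-227654790 (ZNF678, plus strand) and chr16:31915456-31915554 (ZNF267, plus strand). The last 3 are from genes of at least 8 fingers that have no copy of the word in the coding sequence and did not pass the threshold. They lie at chr7:100071719-100071817 (ZNF3, minus strand), chr9:127444346-127444444 (ZNF79, plus strand) and chr16:30783629-30783727 (ZNF629, minus strand). These 3 encode the same linker residues with other codons. Each of the first 5 stretches holds the word in both linkers. The stretches are examples and no sample of all linkers of the members, of which 36.7% hold the word.
ZNF721: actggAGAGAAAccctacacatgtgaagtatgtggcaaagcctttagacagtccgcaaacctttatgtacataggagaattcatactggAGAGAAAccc
ZNF107: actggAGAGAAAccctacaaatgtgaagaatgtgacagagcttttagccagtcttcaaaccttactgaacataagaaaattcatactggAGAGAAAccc
ZNF595: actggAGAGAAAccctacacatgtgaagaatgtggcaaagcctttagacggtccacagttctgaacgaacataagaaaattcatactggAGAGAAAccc
ZNF678: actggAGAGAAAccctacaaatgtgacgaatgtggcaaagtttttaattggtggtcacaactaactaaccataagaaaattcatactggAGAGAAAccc
ZNF267: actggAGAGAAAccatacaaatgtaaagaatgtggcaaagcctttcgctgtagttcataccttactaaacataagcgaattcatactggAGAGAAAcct
ZNF3: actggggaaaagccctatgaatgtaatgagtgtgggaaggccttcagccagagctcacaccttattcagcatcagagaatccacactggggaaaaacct
ZNF79: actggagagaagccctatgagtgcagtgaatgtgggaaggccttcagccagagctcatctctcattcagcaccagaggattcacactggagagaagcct
ZNF629: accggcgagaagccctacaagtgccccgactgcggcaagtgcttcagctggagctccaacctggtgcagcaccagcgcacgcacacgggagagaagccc

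The targeted gene was read first. STAU1 had 249 and 251 CPM (counts relative to library size, scaled by library composition) in Ctrl and 41.6 and 41.5 CPM in shSTAU1, a log2 fold change of -2.59 ± 0.13 (SE, adjusted p = 0.00103, quasi-likelihood test of edgeR). The totals ran from 32206655 to 36301574 counts per library. All 9 squamous epithelial markers looked for passed the filter on low counts, with a summed level of 7118 to 7551 CPM in Ctrl and 8703 to 11354 CPM in shSTAU1. KRT5 and SFN rose, by 0.65 and 1.43 on the log2 scale (adjusted p = 0.0408 and 0.0285, edgeR). DSG3 lay the other way, with 73.4 and 52.9 CPM in Ctrl and 40.5 and 33.8 CPM in shSTAU1 (-0.76 ± 0.19, adjusted p = 0.0731, edgeR), and CDH1 had -0.29 ± 0.25. The fibroblast markers summed to 17.3 and 22.6 CPM in Ctrl and 10.7 and 10.1 CPM in shSTAU1, with THY1 at 0 in all 4 libraries and COL1A1 lower in shSTAU1 (log2 fold change -1.35, adjusted p = 0.0360, edgeR). COL1A2 lay the other way, at 1.19 and 1.68 CPM against 2.15 and 3.62 CPM (1.01 ± 0.41, adjusted p = 0.185, edgeR). The leukocyte markers summed to at most 0.311 CPM, with CD68 at 0 in all 4 libraries. The endothelial markers summed to between 7.44 and 18.02 CPM per library. The part of these marker differences in the results on zinc finger genes was not tested.

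Zinc finger genes were lower in shSTAU1 cells far more often than they were higher. Of the 251 genes, 199 passed the filter on low counts. Another 33 had no read in any library, and 19 had at most 19 counts in a library. In 17 of the 199 (8.54%) the level fell past the threshold (an adjusted p under 0.05 over 14303 genes, by the quasi-likelihood test of edgeR), against 1.48% of all tested genes that fell. None rose at this threshold, where 1.13% of all tested genes rose. At an unadjusted p under 0.05, 46 members were lower and 9 were higher, against 11.6% and 12.9% of all tested genes, and DESeq2 called 29 members lower and 5 higher, against 4.73% and 5.40% of all tested genes. Both shSTAU1 libraries lay below both Ctrl libraries in 101 members, where this holds for 28.0% of all tested genes. Both lay above in 25 members, against 28.5%.

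The median log2 fold change of the 199 members was -0.25, with 146 negative and 53 positive, and for all tested genes the median was 0.01. Protein-coding genes that are no ZNF gene had a median of 0.04 (n = 11598). The ZNF genes of chromosome 19 had a median of -0.24 (n = 165), and 11 of them fell and none rose (at an unadjusted p under 0.05, 42 were lower and 2 were higher, and DESeq2 called 27 in all). The 9 tested ZNF genes on X or elsewhere had a median of -0.29, and none passed the threshold (4 at an unadjusted p under 0.05, 1 by DESeq2). The members and the chromosome 19 genes thus had medians of like size, and no test of a difference between them was made. In bulk RNA, fewer cells of a type and less RNA per cell cannot be told apart.

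**Figure D1:**
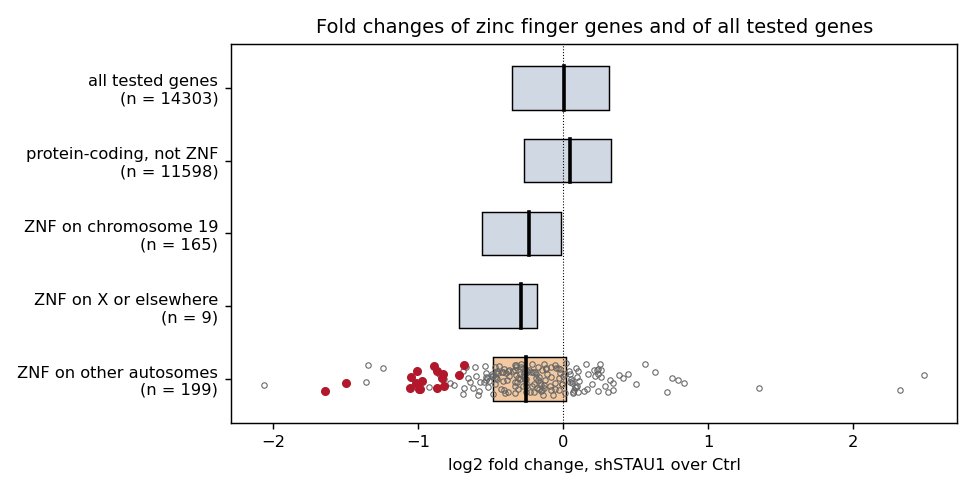
Log2 fold change of shSTAU1 over Ctrl (x axis) for 5 groups of tested genes. Boxes span the quartiles and the thick line is the median. In the lowest row each circle is 1 of the 199 members, and the 17 filled circles, which fell at an adjusted p under 0.05, all lie left of zero.

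The 17 calls depended on which library entered the fit. Without Ctrl replicate 2, 7 members were called (background 1.63% of all tested genes), of which 6 were among the 17, and without Ctrl replicate 1, 13 were called (background 1.65%), of which 10 were among them. Without shSTAU1 replicate 1 or shSTAU1 replicate 2, 39 and 36 members were called, with all 17 among both, while 18.3% and 12.2% of all tested genes were called. When no filter on low counts was applied, edgeR called none of 218 members (46 lower and 10 higher at an unadjusted p under 0.05) and 11 of all 24804 genes (0.0443%). The fold changes of the 17 genes kept their sign in every alternative that was run.

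In the 17 genes that fell, the shSTAU1 level was between 32.0% and 62.2% of the Ctrl level, and the groups did not overlap in any of them. The 2 with the largest difference both lie on chromosome 1. ZNF678 (ENSG00000181450, 1:227563543-227677443) had 83.8 and 114 CPM in Ctrl and 25.5 and 37.7 CPM in shSTAU1, a log2 fold change of -1.64 ± 0.23 (adjusted p = 0.0319, edgeR). ZNF695 (ENSG00000197472, 1:246945547-247008093) had 58.0 and 59.2 CPM in Ctrl and 18.5 and 22.9 CPM in shSTAU1, a log2 fold change of -1.50 ± 0.16 (adjusted p = 0.0144, edgeR). For ZNF695, 19.5% of the exon bases are shared with the exons of other genes, among them a readthrough transcript from ZNF670, and reads there could be counted for either. ZNF678 encodes 14 fingers and ZNF695 encodes 9.

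**Figure D2:**
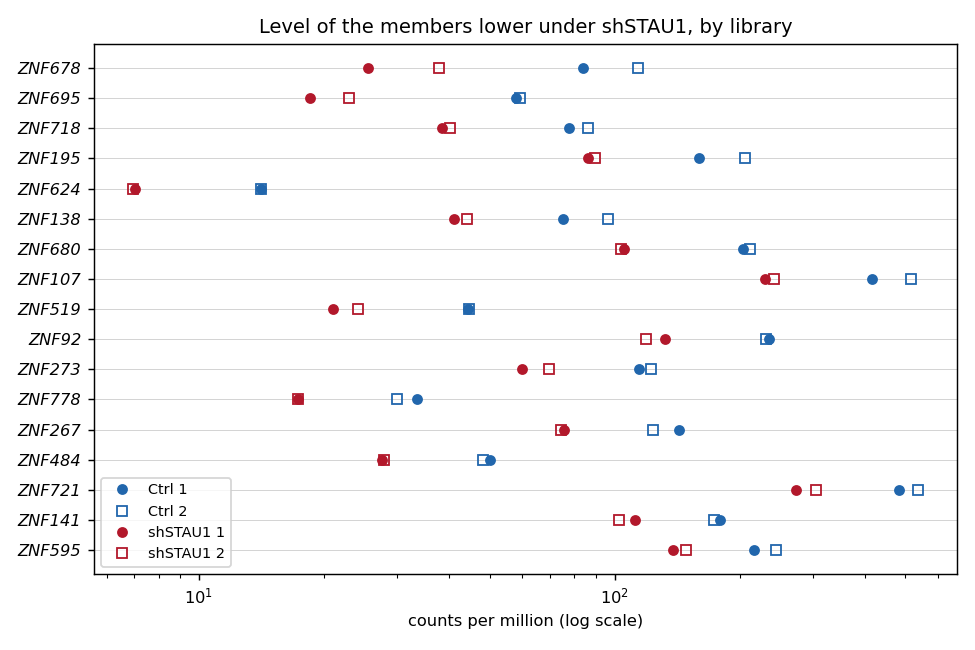
Level of the 17 members that fell (rows, ordered by fold change) in CPM on a log axis, with 1 symbol per library and no error bar. Both shSTAU1 symbols lie left of both Ctrl symbols in every row, from ZNF678 at the top to ZNF595 at the bottom.

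A cluster near the centromere of chromosome 7 held 5 of the 17. The cluster runs from ZNF727 to ZNF92 (7:64045443-65401135) and holds 10 members, of which 6 were tested and 4 had no read in any library. ZNF107 (ENSG00000196247) had 416 and 516 CPM in Ctrl and 230 and 241 CPM in shSTAU1, with a log2 fold change of -0.99 ± 0.14 (adjusted p = 0.0328, edgeR). In ZNF680 (ENSG00000173041) the levels were 203 and 212 CPM against 105 and 103 CPM, a log2 fold change of -0.99 ± 0.12 (adjusted p = 0.0220, edgeR). These 2 genes stood at 50.5% and 50.3% of their Ctrl level, and the replicates of ZNF680 were close together. ZNF92 (ENSG00000146757) went from 235 and 231 CPM to 132 and 119 CPM (log2 fold change -0.89 ± 0.13, adjusted p = 0.0325, edgeR). ZNF273 (ENSG00000198039) went from 114 and 122 CPM to 60.0 and 69.4 CPM (log2 fold change -0.87 ± 0.14, adjusted p = 0.0357, edgeR). The fifth, ZNF138 (ENSG00000197008), went from 74.9 and 96.4 CPM to 41.1 and 44.2 CPM (log2 fold change -1.005 ± 0.16, adjusted p = 0.0358, edgeR). The sixth tested gene of the cluster, ZNF117, did not pass the threshold (log2 fold change -0.83 ± 0.25, adjusted p = 0.104, edgeR). Its shSTAU1 libraries stood far apart, at 166 and 90.4 CPM, against 225 and 230 CPM in Ctrl. The median over the 6 genes was -0.94, and without Ctrl replicate 2 the cluster had 2 calls in place of 5.

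At the end of the short arm of chromosome 4, all 4 tested members of the cluster from ZNF595 to ZNF721 (4:53285-499156) fell. ZNF732, the fifth member, had at most 4 counts in a library and was not tested. ZNF721 (ENSG00000182903) was the member with the highest level per length, with a mean of 62.5 RPKM (CPM per kilobase of exon). It had 484 and 537 CPM in Ctrl and 273 and 304 CPM in shSTAU1, a log2 fold change of -0.82 ± 0.13 (adjusted p = 0.0357, edgeR). Exons of other genes overlap 25.8% of its exon bases, so its reads are uncertain in that part. ZNF595 (ENSG00000272602) had 217 and 244 CPM against 138 and 149 CPM, a log2 fold change of -0.68 ± 0.13 (adjusted p = 0.0424, edgeR). In ZNF718 (ENSG00000250312) the levels were 77.8 and 86.3 CPM against 38.5 and 40.3 CPM, a log2 fold change of -1.06 ± 0.14 (adjusted p = 0.0273, edgeR). ZNF141 (ENSG00000131127) had 179 and 173 CPM against 112 and 102 CPM, a log2 fold change of -0.72 ± 0.13 (adjusted p = 0.0364, edgeR). The groups were apart in all 4, and the median was -0.77. Without Ctrl replicate 2 the cluster had 1 call, and without Ctrl replicate 1 it had 2.

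**Figure D3:**
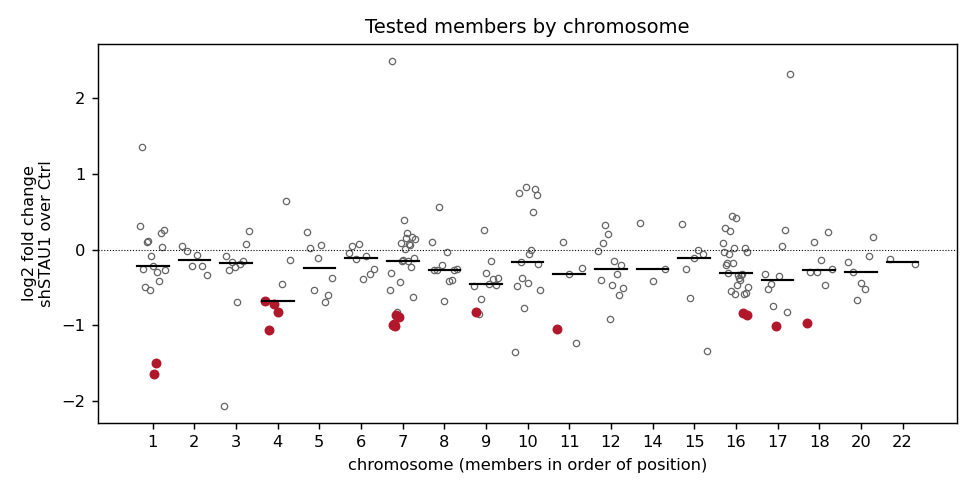
Log2 fold change of shSTAU1 over Ctrl (y axis) for the 199 tested members by chromosome (x axis), in order of position within each. Filled circles fell at an adjusted p under 0.05 and the bars are medians. The filled circles gather on chromosome 4 (4 of 7 tested members) and chromosome 7 (5 of 25).

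The other 6 genes that fell are spread over 5 chromosomes. ZNF195 (ENSG00000005801, 11:3339261-3379222) had 159 and 205 CPM in Ctrl and 86.3 and 89.8 CPM in shSTAU1, a log2 fold change of -1.05 ± 0.16 (adjusted p = 0.0338, edgeR). On chromosome 16, ZNF267 (ENSG00000185947, 16:31873758-31917357) went from 143 and 124 CPM to 75.4 and 74.3 CPM (log2 fold change -0.83 ± 0.14, adjusted p = 0.0358, edgeR). ZNF778 (ENSG00000170100, 16:89217703-89237071), at the far end of the same chromosome, went from 33.4 and 29.9 CPM to 17.3 CPM in both shSTAU1 libraries (log2 fold change -0.87 ± 0.16, adjusted p = 0.0399, edgeR). In all 3 the shSTAU1 libraries lay close together. ZNF624 (ENSG00000197566, 17:16620737-16653856) had the lowest level per length of the 17, with a mean of 2.07 RPKM. It had 14.1 CPM in both Ctrl libraries and 7.01 and 6.96 CPM in shSTAU1 (log2 fold change -1.01 ± 0.20, adjusted p = 0.0456, edgeR). ZNF519 (ENSG00000175322, 18:14057457-14132490) had 44.3 and 44.6 CPM against 21.0 and 24.2 CPM (log2 fold change -0.98 ± 0.15, adjusted p = 0.0357, edgeR). Both stood at about the same share of the Ctrl level, at 49.6% and 50.8%, and their replicates differed little. ZNF484 (ENSG00000127081, 9:92845031-92878038) had 50.02 and 48.3 CPM in Ctrl and 27.5 and 27.8 CPM in shSTAU1 (log2 fold change -0.83 ± 0.14, adjusted p = 0.0360, edgeR).

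Clusters were not lower everywhere. The second cluster of chromosome 7, from ZNF786 to ZNF862 (7:149069643-149867479), had no call among 9 tested members (1 at an unadjusted p under 0.05, lower, and 1 by DESeq2), and its median was 0.06. In the cluster of chromosome 12 from ZNF605 to ZNF268, all 7 members had a negative log2 fold change, with a median of -0.47 and 4 at an unadjusted p under 0.05, and none passed the adjusted threshold of edgeR (DESeq2 called 2). The cluster of chromosome 16 from ZNF48 to ZNF267 had 1 call among 12 tested members, with a median of -0.33. No test compared the clusters with each other.

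The members differed by the domains they encode. Of the 78 tested members with a KRAB motif, 15 fell (19.2%, against 1.48% of all tested genes). Their median log2 fold change was -0.38 with 69 of 78 negative. Of the 121 without the motif, 2 fell (1.65%, near the share of all tested genes), and the median was -0.16 with 77 negative. The 2 were ZNF678 and ZNF721. The SCAN motif marked 13 tested members with a median of -0.23 and no call (0 at an unadjusted p under 0.05, 0 by DESeq2). A count of 0 among 13 is near the 1.48% of all tested genes that fell. The medians also went down with the number of fingers. In the 8 tested members without the finger motif the median was 0.26 (no call, 3 at an unadjusted p under 0.05, 2 by DESeq2). It was -0.04 in the 38 with 1 to 4 fingers (1 call). For 5 to 9 fingers the median was -0.17 (n = 71, 3 calls), for 10 to 14 it was -0.33 (n = 56, 8 calls), and for 15 or more it was -0.43 (n = 26, 5 calls). Over the 199 tested members, which share the 4 libraries, Spearman's rho of the log2 fold change with the number of fingers was -0.35, with the number of linkers -0.38 and with transcript length -0.06. With copies of the word AGAGAAA, rho was -0.37 for the coding sequence and -0.26 for the 3' untranslated region. With GC content rho was 0.26. A correction of each library for exon length (over all exons of a gene) and GC content was also made. Under it the median of all tested genes was 0.05. The corrected medians were -0.34 with and -0.06 without the KRAB motif and -0.08 with the SCAN motif. From 1 to 4 fingers up to 15 or more, the corrected medians were 0.02, -0.09, -0.29 and -0.36.

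Most of the genes that fell hold many copies of the linker word in their coding sequence. Copies were counted at any place and in any frame of the coding sequence, inside a linker or not. ZNF680, for example, has 8 copies and 3 linkers. The word was searched on the coding strand only, and the bins of copies were chosen after values had been seen. Of the tested members, 28 had 6 or more copies in the coding sequence, and 15 of these fell, with a median log2 fold change of -0.83. In 25 of the 28 both shSTAU1 libraries lay below both Ctrl libraries, where this holds for 28.0% of all tested genes. In 27 the log2 fold change was negative. The other 171 had a median of -0.18, and 2 of them fell (1.17%, against 1.48% of all tested genes). These were ZNF778 with 5 copies and ZNF138 with 1 copy in a coding sequence of 2 fingers. Within the 171 the median was -0.16 for no copy (n = 85, no call, 16 at an unadjusted p under 0.05, 7 by DESeq2). It was -0.19 for 1 or 2 copies (n = 56, 1 call) and -0.20 for 3 to 5 copies (n = 30, 1 call).

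**Figure D4:**
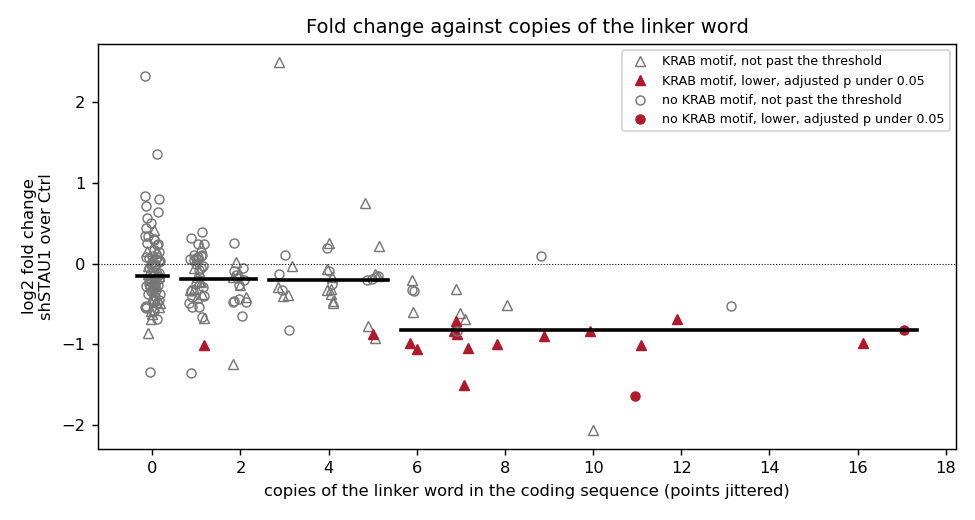
Log2 fold change of shSTAU1 over Ctrl (y axis) against the copies of the linker word in the coding sequence (x axis, jittered) for the 199 tested members. Triangles encode a KRAB motif, filled symbols fell at an adjusted p under 0.05, and the bars are the medians of 0, 1 or 2, 3 to 5, and 6 or more copies. The first 3 bars lie between -0.16 and -0.20 and the fourth at -0.83.

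Finger number and copies go together (Spearman's rho 0.42 over the 199 members), so the members were also divided within ranges of finger number, after values had been seen. For 5 to 9 fingers, the 5 members with 6 or more copies had a median of -0.98 and 3 calls, and the 66 with fewer had a median of -0.15 and no call (7 at an unadjusted p under 0.05, 3 by DESeq2). For 10 to 14 fingers, the 15 with 6 or more copies had a median of -0.83 and 7 calls, and the 41 with fewer had -0.27 and 1 call. For 15 or more fingers, the 8 with 6 or more copies had a median of -0.75 and 5 calls, and the 18 with fewer had -0.33 and no call (6 at an unadjusted p under 0.05, 3 by DESeq2). Finger number can still differ within a range, and no test was made. The word was picked against these same fold changes, so the splits in this paragraph cannot weigh it against finger number or other features. Among members with a KRAB motif, the 21 with 6 or more copies had a median of -0.83 and 13 calls, and the 57 with fewer had a median of -0.27 and 2 calls. Of the 7 members without the motif but with 6 or more copies, 2 fell, and their median was -0.52. The 14 members with 6 or more coding copies and none in the 3' untranslated region had a median of -0.75 with 7 calls, and the 117 with fewer coding copies and none in the 3' untranslated region had a median of -0.15 with 1 call. A transcript without an annotated 3' untranslated region was counted as having no copy there. This holds for ZNF721, among the 7 calls, and for ZNF138, the call among the 117. The 17 genes that fell have a low GC content, with a median of 37.5% against 47.3% in the other tested members. After the correction of each library for exon length and GC content, the medians were -0.72 for 6 or more copies and -0.11 for fewer. There were 12 calls and 1 call that were lower, where 1.15% of all tested genes were. The number of calls among the 28 was 7 without Ctrl replicate 2 and 10 without Ctrl replicate 1, and the medians were -0.82 and -0.84.

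The word is commoner in these genes than in all tested protein-coding genes, and commoner still in the ZNF genes of chromosome 19. Of the 165 tested ZNF genes of chromosome 19, 58 had 6 or more coding copies and 30 had none. Among the 199 tested members these numbers were 28 and 85. At least 1 copy was in the coding sequence of 57.3% of the tested members and of 30.4% of all tested protein-coding genes, and 6 or more were in 14.1% and 1.495%. Other genes with 6 or more copies had smaller differences. In the 58 ZNF genes of chromosome 19 the median was -0.38 with 8 calls, all lower, against -0.01 for the 30 with none. In the 91 protein-coding genes that are no ZNF gene it was -0.13 with 7 calls, all lower, against 0.08 for the 8215 with none. After the correction for exon length and GC content the medians of these last 2 groups were -0.00067 and 0.10, and those of chromosome 19 were -0.34 and -0.02. The difference between the members and these groups was not tested.

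The members with 6 or more copies that did not pass the threshold were 13 genes. ZNF860 (ENSG00000197385, 3:31981771-31991628) had the lowest log2 fold change of all tested members, -2.06 ± 0.51 (adjusted p = 0.0713, edgeR). It had 20.8 and 27.9 CPM in Ctrl and 2.47 and 9.17 CPM in shSTAU1, so the groups were apart but the shSTAU1 libraries differed widely. ZNF354A and ZNF354B, neighbours on chromosome 5, had log2 fold changes of -0.69 and -0.61 (adjusted p = 0.0817 and 0.0822, edgeR), and they share 20.7% and 15.4% of their 50-base words with other genes. For the genes that fell this share was 0 to 9.12%, with a median of 1.17%. ZNF596 alone of the 28 had a positive value, 0.09 ± 0.40, from 6.19 and 5.16 CPM in Ctrl and 8.50 and 3.62 CPM in shSTAU1.

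No member rose at the adjusted threshold, where 1.13% of all tested genes did. ZNF362 had 10.2 and 7.12 CPM in Ctrl and 28.2 and 16.0 CPM in shSTAU1, a log2 fold change of 1.35 ± 0.31 (adjusted p = 0.0631, edgeR). ZNF487, in which no finger motif was found, had 7.37 and 5.77 CPM against 12.3 and 11.1 CPM (0.83 ± 0.23 on the log2 scale, adjusted p = 0.0825, edgeR). ZNF488, a transcription factor of oligodendrocyte development, had 2.77 and 5.19 CPM against 5.20 and 8.60 CPM (0.79 ± 0.38, adjusted p = 0.246, edgeR). In all 3 the groups were apart, and the replicates of ZNF488 differed by about as much as the groups. On the other side, ZNF605 on chromosome 12 had 18.3 and 22.6 CPM against 12.6 and 8.998 CPM (-0.92 ± 0.23, adjusted p = 0.0708, edgeR).

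By level per length, the members stood in a wide range, with ZNF721 first. It was followed by ZNF92 at 51.0 RPKM, ZNF107 at 49.0 RPKM and ZNF595 at 47.5 RPKM, 4 genes that all fell. These 3 neighbours in the order lie close together, and the Ctrl libraries of ZNF107 alone ranged over more than their gaps. The fifth was ZNF644, a partner of histone methyltransferases, at 32.4 RPKM with overlapping groups (log2 fold change 0.11 ± 0.16, adjusted p = 0.701, edgeR). The genes that fell had a median of 91.5 CPM and the other tested members 14.8 CPM, while Spearman's rho of mean CPM with the log2 fold change was -0.09 over the 199 members. The reads come from a kit that captures exons with probes, so a low count can also be that of a gene with poor capture.

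Zinc finger genes with known roles, chosen by role, showed no call, where 2.60% of all tested genes were called, and a count of 0 in lists of this length is near that share. Among 16 tested genes of chromatin and transcription the median log2 fold change was -0.10, with 1 gene at an unadjusted p under 0.05 and 1 called by DESeq2. ZNF143, a factor at promoters and chromatin loops, had 47.6 and 43.1 CPM in Ctrl and 46.4 and 51.1 CPM in shSTAU1 (log2 fold change 0.10 ± 0.14), with overlapping groups. ZNF335, a component of histone methyltransferase complexes, had 43.7 and 44.0 CPM against 29.2 and 31.7 CPM (-0.52 ± 0.14, adjusted p = 0.0846, edgeR). ZNF462, linked to chromatin in development, had overlapping groups and a value of -0.15 ± 0.14. The 6 genes of epithelium and cancer had a median of -0.01 (1 at an unadjusted p under 0.05, 0 by DESeq2). The 1 gene is ZNF750, for which DESeq2 gave no adjusted p, so it was not assessed there. ZNF750, which drives the differentiation of squamous epithelium, had 6 and 12 counts in Ctrl and 72 and 24 in shSTAU1 (log2 fold change 2.32 ± 0.72, adjusted p = 0.109, edgeR). ZNF217, an oncogene amplified in carcinomas, had a value of -0.09 ± 0.21, and ZNF148 had 0.07 ± 0.13.

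The 10 tested members that act on RNA, ribosomes or proteins had a median of 0.07 and no call (1 at an unadjusted p under 0.05, 0 by DESeq2). ZNF346, which like STAU1 binds double-stranded RNA, had 18.3 and 19.2 CPM in Ctrl and 20.3 and 18.8 CPM in shSTAU1 (log2 fold change 0.06 ± 0.17). ZNF598, the ubiquitin ligase that marks collided ribosomes, had a value of 0.08 ± 0.13. ZNF451, a SUMO ligase, had -0.32 ± 0.13 with an adjusted p of 0.183 (edgeR), and ZNF638, which binds RNA and splicing factors, had -0.21 ± 0.13. Their groups were apart, and neither passed the threshold.

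The 8 KRAB zinc finger genes with described roles had a median of -0.24 and no call (2 at an unadjusted p under 0.05, 1 by DESeq2). The motif search found no KRAB motif in 3 of them, ZNF202, ZNF263 and ZNF282, which were counted above among the members without it. ZNF746, known as PARIS, which represses PPARGC1A, had 30.8 and 32.6 CPM in Ctrl and 18.4 and 22.7 CPM in shSTAU1 (log2 fold change -0.62 ± 0.17, adjusted p = 0.0849, edgeR). ZNF268 had 48.0 and 58.8 CPM against 37.6 and 37.3 CPM (-0.51 ± 0.16, adjusted p = 0.104, edgeR). ZNF445, a regulator of imprinting, had -0.23 ± 0.14, and ZNF10, whose KRAB domain is the repressor used in CRISPR interference, had -0.20 ± 0.29 with overlapping groups.

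No gene of a protein through which KRAB zinc finger proteins repress passed the threshold as lower, where 1.48% of all tested genes did. A count of 0 among 18 genes is near that share. At an unadjusted p under 0.05, 0 were lower and 4 were higher, against 11.6% and 12.9% of all tested genes. DESeq2 called 3 (KDM1A, HDAC2 and CBX3), all higher, where it called 5.40% of all tested genes higher. Of 18 partners tested, 15 had a positive log2 fold change and the median was 0.10. KDM1A, a histone demethylase, rose from 145 and 130 CPM to 229 and 219 CPM (log2 fold change 0.71 ± 0.13, adjusted p = 0.0368, edgeR), where 1.13% of all tested genes rose. Without Ctrl replicate 1 or Ctrl replicate 2 its adjusted p was 0.108 and 0.214 (edgeR). TRIM28, which binds the KRAB domain, had 211 and 269 CPM in Ctrl and 229 and 350 CPM in shSTAU1, with overlapping groups (0.27 ± 0.22, adjusted p = 0.475, edgeR). SETDB1, which methylates histone H3 at lysine 9, had 53.7 and 56.7 CPM against 50.3 and 43.8 CPM (-0.23 ± 0.14, adjusted p = 0.356, edgeR). The deacetylase HDAC2 had 263 and 281 CPM against 403 and 407 CPM (0.57 ± 0.12, adjusted p = 0.0522, edgeR), and the heterochromatin protein gene CBX3 had a value of 0.54 ± 0.14 (adjusted p = 0.0766, edgeR). In both the groups were apart, and neither passed the adjusted threshold of edgeR. The remaining 13 partners had values between -0.04 and 0.39.

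**Figure D5:**
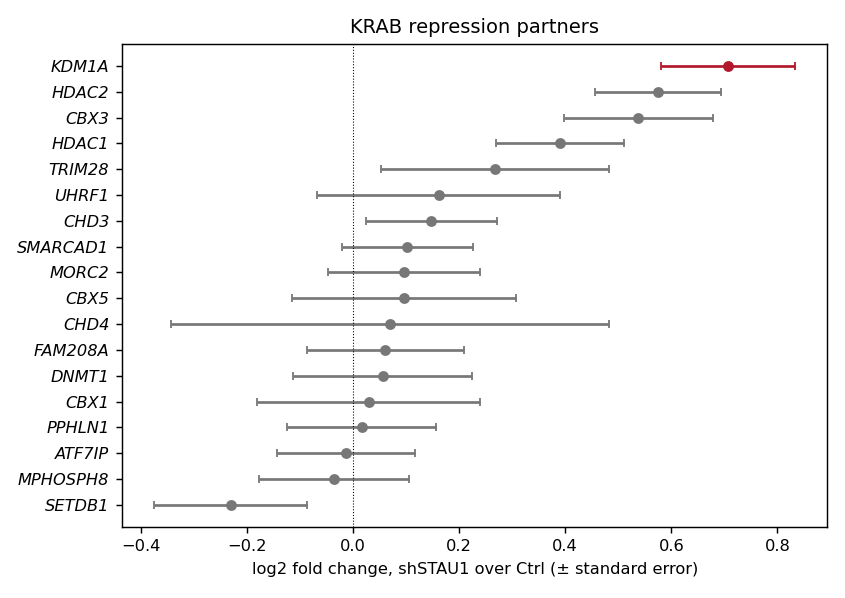
Log2 fold change of shSTAU1 over Ctrl (x axis) with its standard error for the 18 partners of KRAB repression (rows). KDM1A, filled in red at 0.71, passed the adjusted threshold. SETDB1 is the lowest at -0.23.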

How the data were processed

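RNA was extracted with TRIzol and made into libraries with the TruSeq RNA Exome kit, which captures exons with probes. The authors deposited whole-number read counts per gene for the 4 libraries, without normalization. Partek and hg38 are named in the submitters' processing notes, and the aligner, counter and strand setting are not given in the sources used here. The members and gene lists were chosen with earlier results of these data known, so no list is independent evidence.

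Of the 67008 rows, 45 pseudoautosomal copies with 0 counts were left out. Genes were placed by GENCODE 29 (GRCh38), which may not be the authors' release. The counts were fitted with edgeR 4.0.16 in R 4.3.3 (filterByExpr, TMM scaling, quasi-likelihood test), with Benjamini-Hochberg adjustment over 14303 genes, a threshold of 0.05 and a biological coefficient of variation of 19.1%. Replicates were no duplicates: their counts differed beyond Poisson error, with a chi-square divided by its degrees of freedom of 16.7 in Ctrl and 39.7 in shSTAU1. No exact permutation test was run, since 2 libraries against 2 cannot reach the threshold. CPM are counts relative to the TMM-scaled library size, and RPKM divides them by union exon length. Fingers (C2H2), linkers, KRAB and SCAN motifs and the word were counted in the longest coding transcript of GENCODE 29 with Python 3.11.15, since no RefSeq protein table was used here, and a domain can be missed by its motif. Shared 50-base words were sought between these transcripts and all transcripts of other genes. Exon overlap was taken over all annotated exons of a gene, with other genes on either strand.

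Named are all members past the threshold, the 5 highest by mean RPKM, the 3 highest and 3 lowest log2 fold changes with a mean of at least 5 CPM among the others, genes of the lists, and STAU1. Further genes (ZNF732 and other members of the clusters, ZNF354A, ZNF354B, ZNF596) were named after their values were seen. Clusters are runs of at least 4 members with starts at most 500 kb apart. Alternatives were DESeq2 1.42.0, library size scaling, no filter, limma-voom (limma 3.58.1), a replicate block, a length and GC correction, 2 other thresholds and leaving out each library.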

Additional observations from a re-analysis of the deposited data

How the results depend on the processing

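The 17 calls, all lower, became 34 with DESeq2 (5 higher, 29 lower), where 10.1% of all tested genes were called. They became 34 at an adjusted p under 0.10 (5 higher, 29 lower), where 11.1% of all tested genes were called. At 1.5-fold and an unadjusted p under 0.05 they were 38 (6 higher, 32 lower), against 14.7% of all tested genes. With no filter on low counts they were 0, and 46 members were lower and 10 higher at an unadjusted p under 0.05. Limma-voom called the same 17, and scaling by library size called 18, all lower, where 2.54% and 2.82% of all tested genes were called. Leaving out each library gave 7 to 39 calls, of which 0 to 7 were higher and 7 to 32 were lower. With 1 library left in a group, that library is assumed to vary like the other group. The length and GC correction called 14 (1 higher, 13 lower), where 2.47% of all tested genes were called. It lost ZNF141, ZNF519, ZNF624 and ZNF778, and moved the median log2 fold change from -0.25 to -0.17. Over all tested genes the calls were 161 higher and 211 lower, but 132 and 272 with library size scaling and 188 and 165 with the length and GC correction. The replicate number as a block gave 62 calls, 31.2% of the tested members against 28.6% of all tested genes. Of these, 11 were higher (5.53% against 15.4%) and 51 were lower (25.6% against 13.1%). Block and correction together gave 48 calls, 24.1% of the tested members against 24.8% of all tested genes, and a median of -0.17. Here 11 were higher (5.53% against 15.4%) and 37 were lower (18.6% against 9.43%). Libraries of the same number deviated from their group means with a correlation of 0.271 over all tested genes and 0.150 over the members, in 2 pairs, and the labels tie a number to no batch, so the block is an alternative only. No gene that fell changed sign. The sign of 4 genes near 0 turned when a library was left out, with ranges of -0.088 to 0.54 for TRIM28, -0.51 to 0.11 for ZNF10, -0.35 to 0.12 for ZNF217 and -0.076 to 0.26 for ZNF644. Of the 472 values of named genes under the alternatives, 366 kept direction and call, 57 gained a call, 42 lost it and 7 changed sign. The cause of these changes was not tested. With 2 libraries a group, the spread rests on few degrees of freedom, and a gene that missed the threshold is not shown to be unchanged.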
